A study of Mus musculus with 27 samples.

Results

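Cardiac fibroblasts given Gata4, Mef2c and Tbx5 together (GMT, 3 libraries) were compared with the same cells given Gata4 alone (G, 3 libraries), so that the difference is the joint addition of Mef2c and Tbx5. The 6 libraries were chosen by their labels from a series of 27 samples. The readout is ATAC-seq, which tags exposed DNA with an enzyme and counts the tagged pieces, given here for 30815 regions of mouse build mm9. The cells were an immortalised neonatal cardiac fibroblast line of strain Cd-1 that expresses large T antigen and carries an alpha-MHC-GFP reporter. They received retroviruses and were transposed unsorted at day 2. Both GMT and G were cultured with the Tgfβ inhibitor sb431542 and the Wnt inhibitor xav939. The groups used for context were GM (Gata4 and Mef2c), GT (Gata4 and Tbx5), MT (Mef2c and Tbx5), M (Mef2c) and T (Tbx5), all with the inhibitors. The control carried a dsRed retrovirus and had no inhibitors. Each of these 8 groups had 3 libraries, which the labels call biological replicates with no word on how they were kept apart. The p-values cover no more than the variation among these cultures, which may be technical. As the cells are an immortalised line and were not sorted for infection or for the reporter, a change in more cells and a larger change per cell cannot be told apart.

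Gata4 is a zinc-finger factor that binds GATA sequences and can bind sites in closed chromatin. Mef2c is a MADS-box factor and Tbx5 a T-box factor, and both switch on muscle and heart genes during development. Together the 3 factors are known for turning cardiac fibroblasts into cells that resemble cardiomyocytes. An ATAC-seq region gains counts when its DNA becomes more exposed, as at an enhancer or promoter coming into use, and loses counts when it is covered by nucleosomes.

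Total counts were 241394, 817519 and 1059307 in GMT replicates 1, 2 and 3, against 1124313, 386147 and 1544120 in G replicates 1, 2 and 3. After regions with few counts were left out, 20494 regions (66.5%) were tested. Levels are CPM, the counts of a region relative to the total of its library, scaled by TMM, a factor that corrects each library for its composition. The shallowest library of each group stood apart from the others. GMT replicate 1 had a mean Spearman correlation across regions of 0.707 with the other GMT libraries and 0.772 with MT. G replicate 2 had 0.802 with the other G libraries and 0.823 with the control. The library labelled GT replicate 1 had 0.893 with the G libraries, against 0.726 with its own group, so most counts and medians that use GT are also given without it. The sorting of the falls and the medians and CPM shares of the Gata4 lists are given only with it. Since the regions were not assigned to genes, neither the identity of the cells nor the retroviral factors could be checked through marker genes here.

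Mef2c and Tbx5 on top of Gata4 changed accessibility at many regions, and with TMM scaling more of them rose than fell. By edgeR's quasi-likelihood test at an adjusted p below 0.05, 4160 regions (20.3% of those tested) were higher in GMT than in G and 2061 (10.1%) were lower, 6221 (30.4%) in all. The regions higher in GMT had a median log2 fold change of 2.11 and the lower ones of -1.73. Changes of more than 4-fold were fitted at 2347 of the higher regions and at 735 of the lower ones. All 3 GMT libraries lay above all 3 G libraries at 3219 of the 4160 higher regions, where 4146 of all regions tested (20.2%) had this order. They lay below at 1661 of the 2061 lower regions, where 3058 regions (14.9%) had that order. The balance between rises and falls moved with the scaling. Offsets fitted to each library by loess against the mean count shifted the median log2 fold change of all regions by -0.12 and gave 3108 higher and 2973 lower, so that 51.1% of the calls were rises, against 66.9% with TMM. Counts depended on G replicate 3, without which 2392 regions were higher and 940 lower, on GMT replicate 3, without which 2754 were higher and 1031 lower, and on GMT replicate 2, without which 1225 were lower. Without both GMT replicate 1 and G replicate 2, 4552 were higher and 2209 lower.

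**Figure D1:**
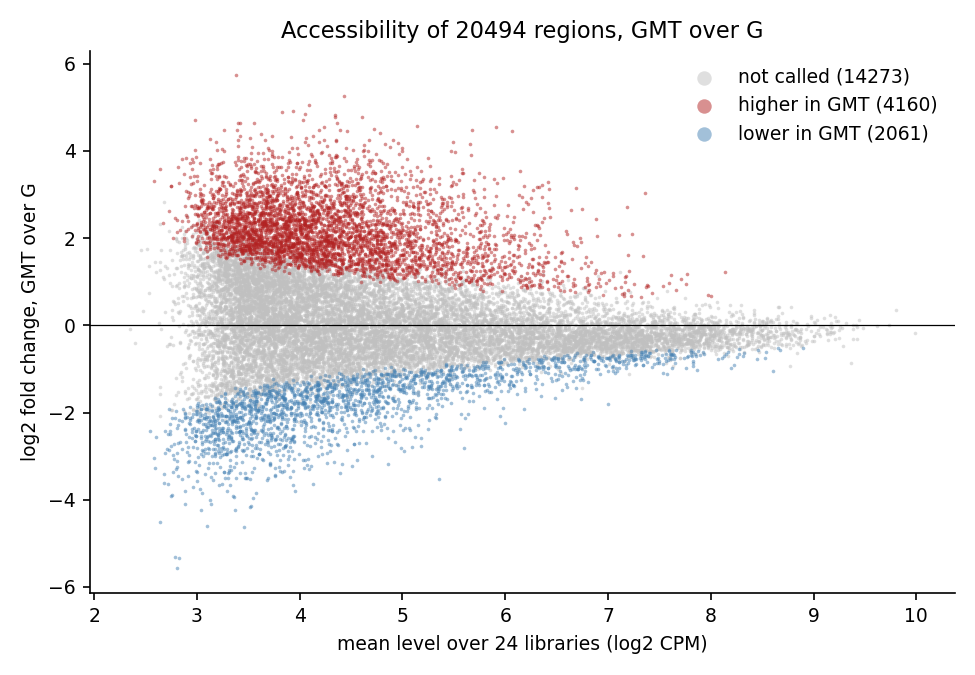
Log2 fold change of GMT over G (vertical axis) against the mean level over the 24 libraries in log2 CPM (horizontal axis), 1 point per region tested. The 4160 regions called higher in GMT lie above the line at 0 and the 2061 called lower lie below it, and the called regions reach a log2 fold change of 5.73 above 0 and -5.569 below it.

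The 10 rises named here had 0.706 to 28.6 CPM in the G libraries, values that the ranking by GMT over G helps to keep low. All regions tested had a median of 21.4 CPM in G. Among called regions of at least median level whose libraries did not overlap, the 10 with the highest log2 fold change ranged from 4.25 to 5.25, with adjusted p from 5.33e-08 to 2.65e-05. The first, chr12:33285452-33285984, had 40.1, 135 and 127 CPM in the GMT libraries, against 2.72, 7.79 and 0.706 CPM in the G libraries (log2 fold change 5.25 ± 0.76 SE, adjusted p = 1.45e-05). The lowest GMT library, replicate 1, was still above every G library, whose values rest on 1 to 3 counts each. This region was at 50.8 ± 20.5 CPM in GM, 33.1 ± 36.8 CPM in GT and 43 ± 21.7 CPM in MT (SD, n = 3 each), so the means of all 3 pairs lay between those of GMT and the single factors, although the GT libraries ran from 10.1 to 75.5 CPM. M had 16.4 ± 4.25 CPM there, T 15 ± 3.68 CPM and the control 3.6 ± 4.69 CPM.

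Other top-ranked rises followed Tbx5. At chr17:73371686-73372265 the GMT libraries had 241, 342 and 275 CPM and the G libraries 14.5, 20.8 and 8.48 CPM (log2 fold change 4.45 ± 0.57, adjusted p = 2.73e-06). T had 439.5 ± 109 CPM (SD, n = 3) there and MT 349 ± 21.8 CPM, whereas M had 12 ± 4.17 CPM and GM 16.9 ± 5.48 CPM. The groups with Tbx5 were high and those without it low, except that the library labelled GT replicate 1 had 12.6 CPM while GT replicates 2 and 3 had 309 and 195 CPM. The region chr15:68243764-68244614 was the widest of the 10, at 851 bp, and had 120.4, 405 and 544 CPM in the GMT libraries against 18.1, 28.6 and 7.06 CPM in the G libraries (log2 fold change 4.55 ± 0.59, adjusted p = 3.35e-06). It also stood high in MT, at 259 ± 120.4 CPM, and in T, at 169.6 ± 52.2 CPM, and low in M, at 14.1 ± 1.22 CPM. A similar order held at chr16:24367243-24367686, with 56.2, 132 and 121 CPM in GMT and 2.72, 7.79 and 5.65 CPM in G.

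A smaller number of the top-ranked rises followed Mef2c. At chr2:48254008-48254321 the GMT libraries had 68.2, 49 and 57.5 CPM, close to each other and far above the 3.63, 2.6 and 1.41 CPM of the G libraries (log2 fold change 4.46 ± 0.54, adjusted p = 1.56e-06). M had 80.9 ± 6.66 CPM and MT 73.6 ± 12.1 CPM there, against 5.87 ± 3.02 CPM in T and 5.45 ± 3.12 CPM in GT. The region with the smallest adjusted p of the 10, chr16:43456604-43457112, had 120.4, 219 and 189 CPM in GMT and 7.25, 18.2 and 4.24 CPM in G (log2 fold change 4.49 ± 0.42, adjusted p = 5.33e-08). Without Gata4 it was open with either factor, at 117 ± 20.7 CPM in M and 65.2 ± 29.9 CPM in T, and had 192 ± 15.3 CPM in MT. With Gata4 it had 77.7 ± 11.5 CPM in GM but 15.6 ± 10.4 CPM in GT, against 9.89 ± 7.34 CPM in G. The remaining 4 of the 10 were chr5:12630832-12631365, chr6:59224024-59224564, chr1:88274837-88275326 and chr6:12612316-12612773. Of the 10 rises, 6 were called higher in T than in M and 2 higher in M than in T by edgeR, and all 10 were called higher in MT than in the control. Of all regions tested, 16.1% were called higher in T than in M, 15.3% higher in M than in T and 17.5% higher in MT than in the control. All 10 were called in every alternative tried.

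The 10 falls named by the same rule had 26 to 248 CPM in the G libraries. The minimum level and the ranking by GMT over G help to keep these values high. The named falls had log2 fold changes from -3.53 to -2.80 and adjusted p from 1.69e-05 to 0.000811 by edgeR's quasi-likelihood test. Of these, 9 were among the regions that Gata4 raised in GM and GT relative to M and T, a list described further on, and 4 were called lower in MT than in the control. Of all regions tested, 12.8% were on that list and 7.2% were called lower in MT. At the exception, chr15:36960866-36961278, the GMT libraries had 12, 15.5 and 12.9 CPM and the G libraries 140.5, 83.1 and 248 CPM (log2 fold change -3.53 ± 0.56, adjusted p = 4.09e-05). The control was also open there, at 111 ± 28.1 CPM (SD, n = 3), so this site was closed in GMT relative to both. MT had 22.4 ± 9.68 CPM, M 28.1 ± 10.9 CPM and T 22.3 ± 28.5 CPM. At chr5:107876951-107877176 the GMT libraries lay within a narrow range, at 20.1, 23.2 and 19.8 CPM, against 217, 114 and 238 CPM in the G libraries (log2 fold change -3.17 ± 0.47, adjusted p = 1.69e-05). Here the control was low, at 23.5 ± 7.17 CPM, and so were MT, at 9.12 ± 0.61 CPM, M, at 6.78 ± 3.19 CPM, and T, at 5.08 ± 2.98 CPM. The pairs with Gata4 held intermediate levels, 77.7 ± 27.5 CPM in GM and 96.3 ± 84.8 CPM in GT, of which the library labelled GT replicate 1 had 193 CPM and the others 58.7 and 36.8 CPM.

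The same order, highest in G, intermediate in GM and GT and low in GMT, was seen at chr5:37355096-37355508, with 8.03, 14.2 and 10.9 CPM in GMT and 131, 41.6 and 122 CPM in G (log2 fold change -3.09 ± 0.50, adjusted p = 5.01e-05). GM had 30.5 ± 8.64 CPM and GT 56 ± 41.8 CPM there (SD, n = 3 each), the GT libraries being at 103.6, 39.2 and 25.3 CPM. Similarly, chr15:66629417-66629622 had 4.01, 9.03 and 11.9 CPM in GMT and 106, 36.4 and 109 CPM in G, with 50.6 ± 20.9 CPM in GM and 50.4 ± 44.4 CPM in GT. The GT libraries had 101.1, 31.7 and 18.4 CPM there, again highest in the library labelled replicate 1. In all of these the lowest G value was that of replicate 2. The region chr5:72641179-72641570 differed in that GMT replicate 1 had 68.2 CPM, against 15.5 and 8.92 CPM in GMT replicates 2 and 3 and 134, 156 and 196 CPM in G. The remaining 5 falls were chr5:75173960-75174175, chr5:144141438-144141737, chr17:21612274-21612632, chr16:4477648-4477974 and chr9:59385900-59386131. Without replicate 3 of all groups, 3 of the 10 falls were no longer called by edgeR, chr5:144141438-144141737 (adjusted p = 0.0627), chr5:72641179-72641570 (adjusted p = 0.0792) and chr9:59385900-59386131 (adjusted p = 0.068).

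**Figure D2:**
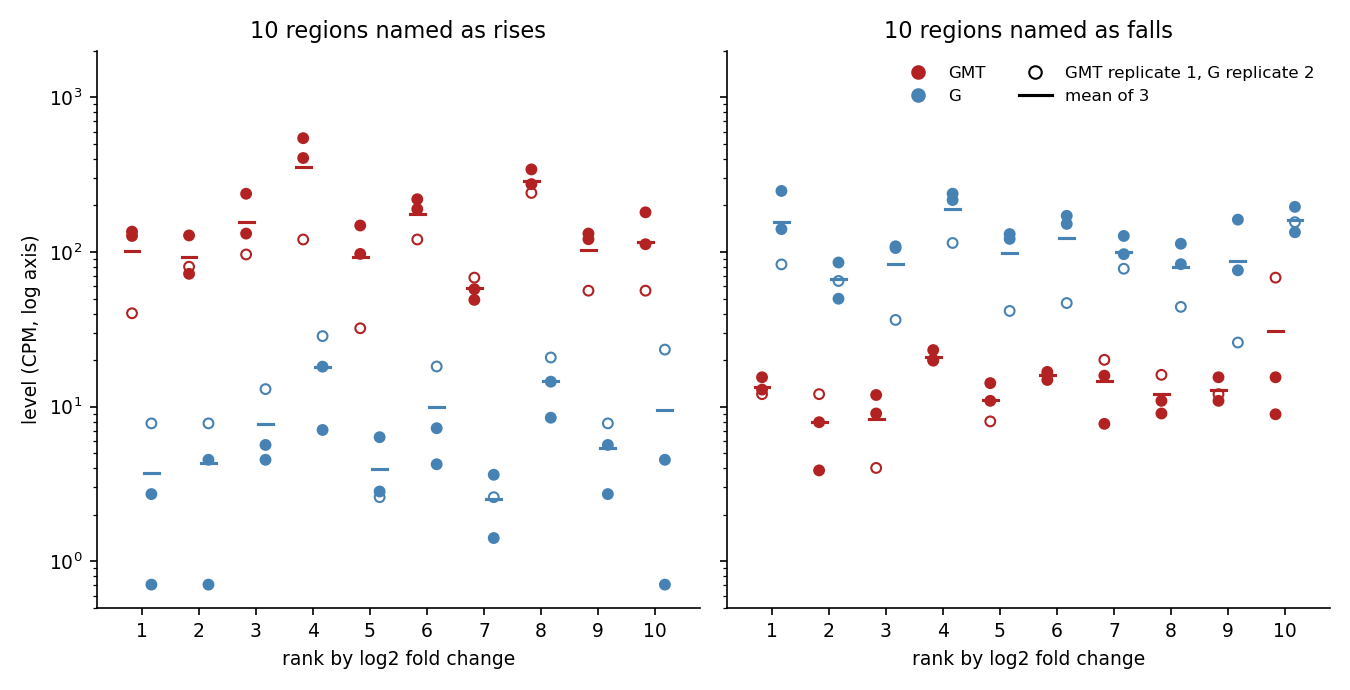
Level in CPM on a log axis of the 10 regions named as rises (left) and the 10 named as falls (right) in each GMT library (red) and G library (blue), by rank of the log2 fold change, with the mean of 3 as a bar. Open circles mark GMT replicate 1 and G replicate 2, the shallowest library of each group, and at every rank the GMT and G libraries do not overlap.

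**Figure D3:**
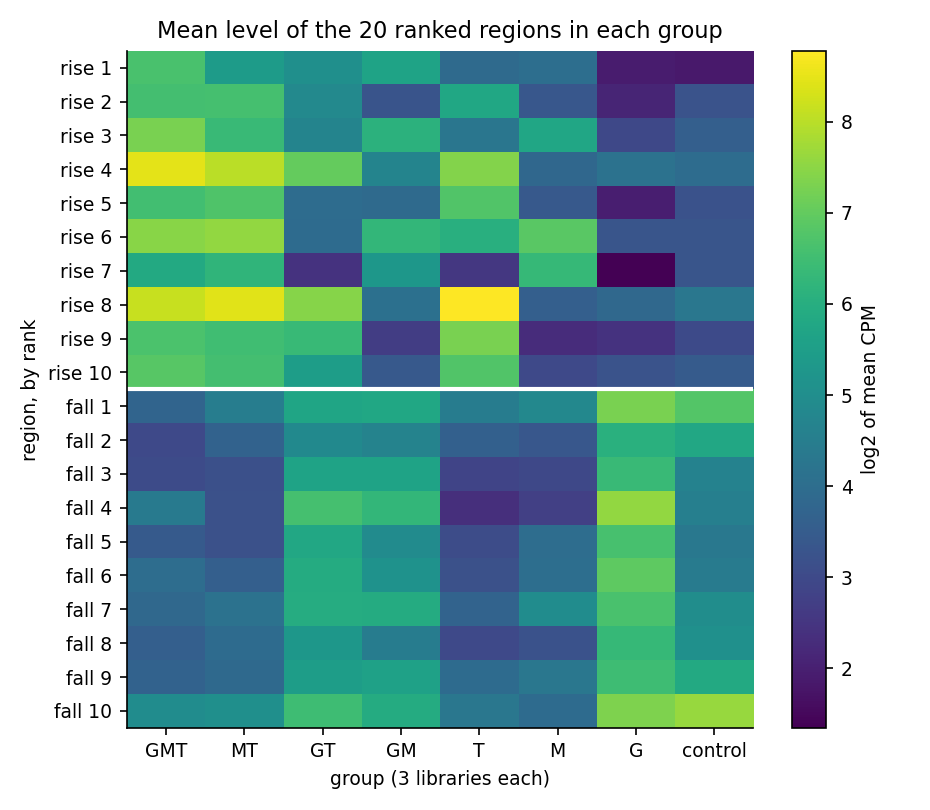
Log2 of the mean CPM over 3 libraries for the same 20 regions (rows, by rank) in the 8 groups (columns). The rises are bright in GMT and MT and dark in G and the control, and the falls are brightest in G, except fall 10, which is brighter in the control.

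The libraries that took no part in the comparison showed where the changed regions stood with other factors. Over the 4160 regions higher in GMT, the median level was 24.1, 40 and 37.7 CPM in the GMT libraries and 8.16, 10.4 and 5.65 CPM in the G libraries. The MT libraries had medians of 34.9, 35.4 and 25.9 CPM at these regions, in the range of GMT, the T libraries 29.3, 23.3 and 20.9 CPM, and the M libraries 13.4, 13.4 and 13.3 CPM. The control libraries, at 11.1, 9.12 and 6.62 CPM, were close to G. GM stood at 13.2, 12.4 and 12.6 CPM, and GT replicates 2 and 3 at 20.5 and 18.4 CPM. The library labelled GT replicate 1 had 8.85 CPM, within the range of G.

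Over the 2061 regions lower in GMT, the median level was 12, 11.6 and 11.9 CPM in the GMT libraries and 47.1, 31.2 and 53 CPM in the G libraries. The control lay between them, at 22.3, 22.1 and 19.9 CPM, and MT was close to GMT, at 8.89, 11.8 and 14.1 CPM. GM had 20.4, 22.3 and 28.4 CPM and GT replicates 2 and 3 had 20.5 and 20.7 CPM, below every G library and above every GMT library. In both directions the shallow libraries GMT replicate 1, at 24.1 CPM over the rises, and G replicate 2, at 31.2 CPM over the falls, were the members of their groups nearest to the other group. Whether depth had a part in this was not tested.

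**Figure D4:**
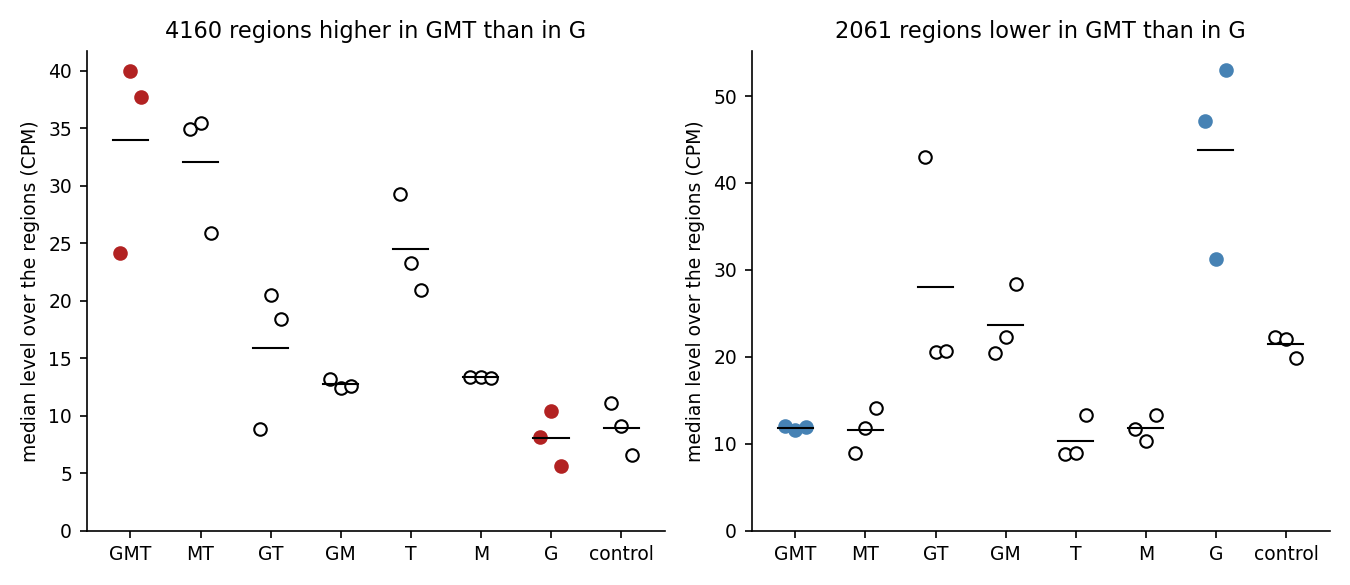
Median level in CPM over the 4160 regions higher in GMT (left) and the 2061 lower in GMT (right) in each of the 24 libraries (points) by group, with the mean of 3 libraries as a line. Filled points are the GMT and G libraries that chose the regions, and MT stands near GMT in both panels while GM and GT lie between GMT and G, apart from 1 GT library at the level of G.

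Regions that responded to each added factor were next taken from libraries other than GMT and G. Adding Tbx5 to Mef2c (MT against M) raised 2129 regions (10.4% of those tested) and lowered 424 (2.07%). Of the 2129 raised, 1526 (71.7%) were also higher in GMT than in G and 3 were lower, against 20.3% and 10.1% of all regions, and their median log2 fold change in GMT over G was 1.90, against 0.06 for all regions. They made up 36.7% of the 4160 rises. These regions together held 9.78%, 13.7% and 12.4% of all CPM in the GMT libraries and 4.26%, 4.83% and 4.04% in the G libraries, so the groups did not overlap. Their median level was 10.1 CPM in G, against 21.4 CPM for all regions. Neither here nor for the lists below were the shares of all regions matched for level in G. Of the 424 lowered by Tbx5, 5 were lower in GMT and 65 (15.3%) higher, and their median log2 fold change was 0.55. These 424 had a median of 45.9 CPM in M but 7.7 CPM in G, against 21.4 CPM in G for all regions. Whether this level in G kept them from being called lower was not tested. Named by their change in MT over M, chr2:18753102-18753573 had 64.2, 37.4 and 44.6 CPM in GMT and 4.53, 13 and 2.12 CPM in G (log2 fold change 3.21 ± 0.60, adjusted p = 0.000205). Without replicate 3 of all groups it narrowly missed edgeR's threshold (adjusted p = 0.051). Rank 2 was chr17:73371686-73372265, described above. At rank 3, chr4:147830454-147830768 had 56.2, 149.6 and 96.1 CPM in GMT and 9.97, 10.4 and 3.53 CPM in G (log2 fold change 3.83 ± 0.64, adjusted p = 7.42e-05). The 2 lowered regions named, chr13:49008796-49009261 and chr11:109551464-109551880, did not pass the test, with means of 20.1 and 16.8 CPM in GMT and 26.8 and 17.1 CPM in G. The count of 1526 was 922 without M replicate 1 and 944 without M replicate 2, with 1152 and 1190 regions then in the list.

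Adding Mef2c to Tbx5 (MT against T) raised 1085 regions (5.29%) and lowered 238 (1.16%). Of the 1085 raised, 691 (63.7%) were higher in GMT than in G and 2 were lower, against 20.3% and 10.1% of all regions, with a median log2 fold change of 1.70, and they made up 16.6% of the rises. They held 4.45%, 4.92% and 5.35% of CPM in the GMT libraries and 1.84%, 2.33% and 1.82% in the G libraries. In G they had a median of 8.8 CPM, against 21.4 CPM for all regions. At chr15:27554910-27555280 the GMT libraries had 56.2, 78.7 and 110.0 CPM and the G libraries 6.34, 5.19 and 4.94 CPM (log2 fold change 3.89 ± 0.46, adjusted p = 1.06e-06). Another region of the list, chr15:59419636-59420074, had 28.1, 89 and 82.3 CPM in GMT and 6.34, 20.8 and 7.77 CPM in G (log2 fold change 2.81 ± 0.54, adjusted p = 0.000277). The region raised most by Mef2c in MT over T, chr2:84624028-84624336, did not pass the test, with 12, 38.7 and 34.7 CPM in GMT and 20.8, 33.8 and 27.6 CPM in G (adjusted p = 0.731). It already had 27.4 ± 6.46 CPM in G (SD, n = 3), was nearly closed in T, at 1.86 ± 1.9 CPM, and had 48.3 ± 6.34 CPM in MT.

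Few of the regions lowered by Mef2c were lower in GMT. Of the 238, 78 (32.8%) were higher in GMT than in G and 3 were lower, against 20.3% and 10.1% of all regions. These 238 had a median of 95.4 CPM in T but 16.1 CPM in G, against 21.4 CPM in G for all regions. The 2 named, chr14:66890247-66890740 and chr15:58210066-58210327, were higher in GMT (log2 fold changes 2.28 ± 0.59 and 2.54 ± 0.62, adjusted p = 0.0041 and 0.00257). By edgeR the first lost its call without replicate 2 of all groups (adjusted p = 0.0776) and both lost it without replicate 3 (adjusted p = 0.133 and 0.0857). At the first of them T had 128 ± 77.7 CPM, MT 27.2 ± 9.27 CPM and M 4.32 ± 0.92 CPM (SD, n = 3 each), so Mef2c had lowered a region that Tbx5 opened and that was at 13.2 ± 3.57 CPM in G. Its GMT libraries had 12, 98 and 76.3 CPM, of which replicate 1 lay within the range of G. The count of 691 was 241 of 303 without T replicate 2, 359 of 495 without T replicate 1, 411 of 575 without MT replicate 2 and 418 of 634 without MT replicate 1. With loess offsets it was 449 of 715.

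The same 2 factors were then compared without Gata4, as MT against the control, which differ also in the inhibitors. MT was higher at 3578 regions (17.5%) and lower at 1475 (7.2%). Of the 3578, 2577 (72%) were higher in GMT than in G and 4 were lower, against 20.3% and 10.1% of all regions, with a median log2 fold change of 1.95 in GMT over G. These 2577 were 61.9% of the 4160 rises. They include 435 of the regions lowered by Gata4 described next. The 3578 regions held 11.6%, 18.2% and 17.5% of CPM in the GMT libraries and 5.06%, 5.36% and 4.09% in the G libraries. Their median was 8.09 CPM in G, against 21.4 CPM for all regions, and that of the 1475 was 40 CPM. Of the 1475 regions lower in MT than in the control, 426 (28.9%) were lower in GMT than in G and 4 were higher, against 10.1% and 20.3% of all regions, with a median log2 fold change of -0.77. Their share of CPM was 7.16%, 4.64% and 4.38% in GMT and 7.58%, 8.71% and 8.81% in G, where GMT replicate 1 was close to the lowest G library. Without control replicate 3 the count of rises was 1632 of 1974. The count of 426 varied more. It was 258 of 832 without control replicate 2, 258 of 814 without control replicate 3, 213 of 1515 without G replicate 3, 267 of 1561 without GMT replicate 2 and 185 of 1442 without GMT replicate 3. It was 133 of 422 without MT replicate 1, 263 of 789 without MT replicate 2 and 664 of 1932 without T replicate 2. With loess offsets it was 866 of 2185.

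Regions raised when Gata4 was added to Mef2c and to Tbx5 were lower in GMT than in G more often than all regions. This addition, averaged over GM against M and GT against T, raised 2621 regions (12.8%) and lowered 1033 (5.04%). The control is not part of this contrast, so a region open in the control and lower in M and T could also enter the raised list. Over the 2621 regions the median was 42 CPM in G, 28.7 CPM in GM and 33.7 CPM in GT. It was 15.8 CPM in the control, 10.8 CPM in M and 9.56 CPM in T. Of the 2621 raised, 983 (37.5%) were lower in GMT than in G and 132 (5.04%) higher, against 10.1% and 20.3% of all regions. Their median log2 fold change in GMT over G was -0.86, and the 983 made up 47.7% of the 2061 falls. Together these regions held 8.76%, 10.5% and 9.75% of CPM in the GMT libraries and 15.6%, 11.1% and 15.9% in the G libraries. The groups did not overlap, but G replicate 2 came close to GMT. MT, which lacks Gata4, had 4.64%, 5.82% and 6.92%, below every GMT library, and the control had 7.81%, 7.94% and 6.88%. The 3 regions named by the size of this response were all lower in GMT. Besides chr5:107876951-107877176 they were chr1:75452098-75452357, with 24.1, 31 and 14.9 CPM in GMT and 134, 36.4 and 160.4 CPM in G (log2 fold change -2.31 ± 0.54, adjusted p = 0.00188), and chr7:141020197-141020605, with 16.1, 27.1 and 33.7 CPM in GMT and 68, 46.7 and 105 CPM in G (log2 fold change -1.46 ± 0.45, adjusted p = 0.0151). The last of these lost its call by edgeR without G replicate 3 (adjusted p = 0.12) and without GMT replicate 2 (adjusted p = 0.0506). Without replicate 3 of all groups neither it (adjusted p = 0.163) nor chr1:75452098-75452357 (adjusted p = 0.11) was called by edgeR. As the library labelled GT replicate 1 stood with G and entered this list, the list was also made without it, and 644 of its 1896 regions were then lower in GMT. The count was 517 of 2587 without G replicate 3, 647 of 2592 without GMT replicate 2 and 537 of 2499 without GMT replicate 3.

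Of the 1033 regions that Gata4 lowered, 546 (52.9%) were higher in GMT than in G and 2 were lower, against 20.3% and 10.1% of all regions, with a median log2 fold change of 1.48. Their share of CPM was 4.58%, 5.07% and 5.08% in GMT and 2.31%, 2.92% and 1.93% in G. In G they had a median of 9.38 CPM, against 21.4 CPM for all regions. The 2 named were chr2:6911839-6912415 and chr9:61503303-61503640. The first had 44.1, 43.9 and 68.4 CPM in GMT and 6.34, 10.4 and 6.36 CPM in G (log2 fold change 2.89 ± 0.40, adjusted p = 9.04e-06), with 163 ± 24 CPM in MT (SD, n = 3), while the control had 33.1 ± 13.5 CPM. The second had 32.1, 42.6 and 38.7 CPM in GMT and 8.16, 10.4 and 3.53 CPM in G (log2 fold change 2.53 ± 0.47, adjusted p = 0.000217), with 88.3 ± 7.37 CPM in MT, and lost its call by edgeR without replicate 3 of all groups (adjusted p = 0.0632). At both, GMT stood above G and below MT. The count of 546 was 354 of 617 without GM replicate 3, 341 of 616 without M replicate 2 and 389 of 720 without the library labelled GT replicate 1.

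The list counts were also made without GMT replicate 1 and G replicate 2. Then 1707 of 2366 regions raised by Tbx5 and 824 of 1289 raised by Mef2c were higher in GMT, as were 677 of 1237 lowered by Gata4 and 2867 of 3865 higher in MT than in the control. Of the regions raised by Gata4, 1101 of 2889 were lower in GMT, and of those lower in MT than in the control 537 of 1694.

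**Figure D5:**
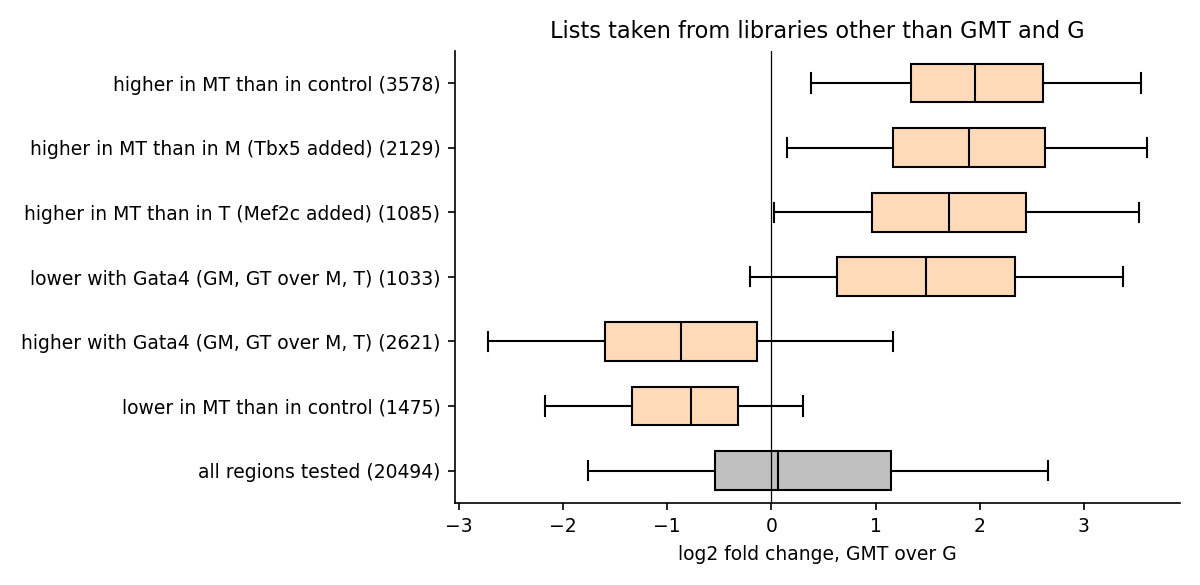
Log2 fold change of GMT over G for lists of regions chosen in other libraries (rows, with their sizes) and for all 20494 regions tested. Boxes span the quartiles with the median as a line, and whiskers the 5th to 95th percentiles; regions raised by adding Tbx5 or Mef2c lie to the right of 0, and regions raised by Gata4 lie mostly to the left, with a median of -0.86.

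The 2061 falls could be sorted by lists that share no library with GMT, G or each other, although all come from the same fit. The library labelled GT replicate 1 entered the Gata4 list. Its Spearman correlation with G replicate 1 was 0.941, against 0.936 between G replicates 1 and 3. A list made with it may favour regions high in G, and the sorting was not remade without it. In all, 742 (36%) were regions raised by Gata4 but not lower in MT than in the control, 185 (8.98%) were lower in MT than in the control but not raised by Gata4, 241 (11.7%) were both and 893 (43.3%) neither. Of all regions tested, 10.9%, 5.26%, 1.94% and 82% were in these classes in the same order. Of the regions only in the class raised by Gata4, 33.4% were lower in GMT, and of those only in the class lower in MT, 17.2%. The share was 60.7% of those in both and 5.32% of those in neither. At the falls only in the class raised by Gata4 the median level was 10.6 CPM in GMT and 43 CPM in G. At those only in the class lower in MT it was 13.1 CPM in GMT and 39 CPM in G. The falls in both classes had 21.3 CPM in GMT and 65.7 CPM in G, and those in neither had 12.3 CPM in GMT and 37.3 CPM in G. The control had 11.4, 45.1, 48.4 and 22.5 CPM in the same order, a level that the choice of regions by MT against the control partly fixed.

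The rises could be sorted by the factor with which they were more open. M was higher than T at 3126 regions (15.3%) and lower at 3308 (16.1%). Of the 4160 rises, 1756 (42.2%) were higher in T than in M, 887 (21.3%) higher in M than in T, and 1517 (36.5%) were not called either way. Read from the lists, 53.1% of the regions higher in T and 28.4% of those higher in M were higher in GMT than in G. In the other direction, 21 of the regions higher in T (0.635%) and 101 of those higher in M (3.23%) were lower in GMT. At the T-preferring rises the median level was 40.7 CPM in GMT, 56.6 CPM in T, 26.8 CPM in GT, 8.95 CPM in GM and 8.71 CPM in G. At the M-preferring rises it was 29.6 CPM in GMT, 46.8 CPM in M, 29.8 CPM in GM, 8.3 CPM in GT and 7.12 CPM in G. The mean of GT replicates 2 and 3 gave medians of 35.3 CPM at the T-preferring rises and 8.32 CPM at the M-preferring ones. Where neither preference was called, MT had 25.8 CPM, T 15.7 CPM and M 13.3 CPM, and GMT had 29.6 CPM. The count of 1756 was 1095 without G replicate 3. The count of 887 was 523 without G replicate 3 and 555 without GMT replicate 3.

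Single additions to Gata4 called fewer regions than the joint addition. These comparisons share the G libraries with GMT against G, so their values are only set side by side. Mef2c alone on Gata4 (GM against G) gave 1183 higher (5.77%) and 307 lower (1.5%), and Tbx5 alone on Gata4 (GT against G) gave 604 higher (2.95%) and 8 lower (0.039%). When the library labelled GT replicate 1 was left out, GT against G gave 1842 regions higher and 573 lower. It gave 1 higher without G replicate 3, 112 without G replicate 1 and 227 without GT replicate 3, and 35 lower without G replicate 2. Without GT replicate 2 edgeR called 0 regions (1358 at an unadjusted p under 0.05), and with all libraries DESeq2 called 510 higher and 6 lower. For GM the number higher was 360 without G replicate 3, 544 without G replicate 1 and 628 without GM replicate 1. The number lower was 19, 61 and 50 without these libraries in turn, 93 without GM replicate 2, 169 without GM replicate 3, 643 without G replicate 2 and 481 without the library labelled GT replicate 1. The regions used next were chosen by their call in GMT over G, which favours large values in that comparison more than in the others. At the 4160 regions higher in GMT the median log2 fold change was 2.11 in GMT over G, 0.61 in GM over G and 0.98 in GT over G. At the 2061 lower regions it was -1.73, -0.83 and -0.59 in the same order of comparisons. With GT replicate 1 left out, the medians in GT over G were 1.22 at the higher regions and -1.0 at the lower ones. At regions called higher in each comparison itself, the median was 2.11 in GMT over G, 2.16 in GM over G and 2.29 in GT over G. At those called lower it was -1.73, -1.71 and -1.91, the last over 8 regions. How much of the gap in medians comes from the choice of regions was not tested.

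Whether the joint addition differed from the sum of the single ones was tested on the log2 scale (GMT - GM - GT + G). No region was called by edgeR's quasi-likelihood test in either direction (0% of those tested), with a smallest adjusted p of 0.606, and DESeq2 called 0 as well. At an unadjusted p under 0.05 there were 749 regions (3.65%) by edgeR and 635 by DESeq2. Without the library labelled GT replicate 1 edgeR also called 0 regions, with 796 at an unadjusted p under 0.05. No departure from the sum was thus detected, which does not show that the additions summed. In simulated counts with 20294 of 20494 regions unchanged, this test missed most of the departures put in. It called 7 of 50 regions raised 4-fold and 6 of 50 lowered 4-fold. At 2-fold it called 1 of 50 raised and 2 of 50 lowered. The 2 smallest unadjusted p among the named regions, picked after their values were seen, pointed in opposite directions. At chr15:59419636-59420074 the difference from the sum was 2.54 in log2, with an unadjusted p = 0.00549 by edgeR over 3 libraries per group. At chr12:33285452-33285984 it was -2.69, with an unadjusted p = 0.00883 by the same test, and neither passed the adjustment.

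Rises were more frequent among wide regions. Of the regions of 201 to 250 bp, 13.2% were higher in GMT and 11.8% lower, and of those above 500 bp 37.3% were higher and 5.77% lower. The median width was 314 bp for the rises, 238 bp for the falls and 261 bp for all regions tested. Wider regions also had higher counts, with a median of the mean log2 CPM of 5.45 above 500 bp and 4.13 at 201 to 250 bp, and how the authors drew the regions is not given in the sources used here. In 4 classes of equal size by mean level, 8.74% of the regions with the highest levels were higher in GMT, and 21.8%, 26.9% and 23.7% in the other classes from the lowest up. Neighbouring regions tended to share the direction. Among rises with another tested region within 10 kb, 45.9% of 1775 had a nearest neighbour that was also higher in GMT and 4.06% one that was lower. Among such falls 20.2% of 693 had a nearest neighbour that was lower and 10.2% one that was higher. For all tested regions with a neighbour in that range the shares were 22.2% higher and 8.5% lower. Across chromosomes, rises ran from 16.4% of regions on chromosome 11 to 23.6% on chromosome 18, and falls from 7.23% on the X chromosome to 13.1% on chromosome 11. These shares are given without a test.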

How the data were processed

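ATAC-seq libraries were made from aliquots of 50000 cells with 12 PCR cycles and sequenced with 100-base paired reads, per the labels' protocols. The values deposited by the authors are raw counts, not normalised, for each region in each library. The submitters' processing notes name Bowtie2, Picard, featureCounts and mm9 without versions. How regions were drawn, any read filters and the counting of single reads against fragments are not given in the sources used here. The table has 24 columns for 27 samples, and the 3 dsRed samples with inhibitors are not analysed here. The tests were run with edgeR 4.0.16, which builds on limma 3.58.1, under R 4.3.3, with DESeq2 1.42.0 as an alternative. Regions were kept by filterByExpr (minimum count 10, total 15), scaled by TMM and tested in 1 fit over 8 groups with edgeR's quasi-likelihood test (square root of the common dispersion 0.294). P-values were adjusted by Benjamini-Hochberg over the 20494 regions, separately for each comparison. The SE is the log2 fold change divided by the square root of F. Log2 CPM used a prior count of 2. Named regions are the 10 highest and 10 lowest log2 fold changes among called regions of at least median level whose libraries do not overlap, and the 3 highest and 2 lowest of each list raised or lowered by a factor, under the same conditions in the list's own groups.

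Deviations from the group mean correlated at -0.362, -0.403 and -0.167 between same-numbered GMT and G libraries. With 3 libraries per group, of which the shallow ones carry different numbers, these values cannot decide whether the numbers pair the groups. For GM and G the deviations correlated at 0.436, 0.464 and 0.302, and for MT and T at 0.227, 0.103 and 0.349. The values were 0.21, -0.135 and -0.372 for GT and G, and 0.0982, -0.0325 and 0.156 for MT and M. For MT and the control they were -0.0399, 0.0126 and -0.0447. Whether the numbers pair GMT with G, GM with G or MT with T was not tested, and the main fit leaves them unpaired. The gene tables used here are of another build, GRCm38, and 9 chromosomes hold regions past their last gene there. Regions were therefore not assigned to genes, and gene lists, motifs and sequences were not used. After the main fit, the test was tried on simulated counts with means, depths and dispersions from the real libraries. Known changes were put into GMT, and 20294 of 20494 regions were left unchanged. For GMT against G, 29 of 50 regions raised 4-fold and 21 of 50 lowered 4-fold were called. At 2-fold it called 7 of 50 raised and 2 of 50 lowered, with 0 false calls. The comparison, the named-region rule, the lists and libraries doubted were chosen with earlier results of these data known.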

Additional observations from a re-analysis of the deposited data

How the results depend on the processing

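All 20 regions named from GMT over G kept their direction in all alternatives tried, and 417 of 420 values kept their call. Of the 272 values of the other 13 named regions, 252 kept their call, 10 lost it and 10 changed sign, all at 2 regions that were not called. At chr11:109551464-109551880 the log2 fold change was 0.0363 with the replicate block and 0.0458 with the stricter filter, and ran from -0.3137 to 0.2847 with libraries left out. At chr2:84624028-84624336 it was -0.0303 with loess offsets and ran from -0.0088 to 0.5881 with libraries left out.

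GMT over G had 2582 higher and 876 lower at an adjusted p below 0.01, 1995 and 862 with the stricter filter (minimum count 30, fewer regions tested) and 1106 lower with a minimum fold of 1.5. With 1 library or 1 replicate number left out, or both shallow libraries, there were 750 to 4552 higher and 141 to 2351 lower. The lowest values were without replicate 3 of all groups, which removes the deepest GMT and G libraries. The cause of the other differences was not tested. Samples share only a number between GMT and G, 0 of 3 GMT libraries deviated most like the G library of their number, and the replicate block gave 4100 higher and 1897 lower.

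GM over G had 525, 639 and 505 higher, and 35, 46 and 96 lower, at an adjusted p below 0.01, a minimum fold of 1.5 and the stricter filter. It had 501 lower with loess offsets, and 80 to 1515 higher and 0 to 755 lower with libraries left out. GT over G had 127, 203 and 392 higher and 0, 0 and 0 lower under the same 3 settings, 373 higher with loess offsets, 375 higher and 2 lower with the replicate block, 2 lower with total counts alone, and 0 in both directions by edgeR with only the groups compared (1780 at an unadjusted p under 0.05). With libraries left out it had 0 to 1842 higher and 0 to 573 lower. The test of the difference from the sum called 0 regions in each of these settings and 1 without GMT replicate 1 and G replicate 2, a range of 0 to 1.

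For the lists, the members called in GMT over G at an adjusted p below 0.01, a minimum fold of 1.5 and the stricter filter were 755, 973 and 956 of those raised by Tbx5, and 275, 342 and 451 of those raised by Mef2c (449 with loess offsets). They were 313, 370 and 430 lower of those raised by Gata4, and 169, 136 and 356 higher of those lowered by Gata4. They were 417, 560 and 476 of those higher in M than T. Of those higher in T than M there were 967 and 999, and of those higher in MT than the control 1434 and 1422, at an adjusted p below 0.01 and with the stricter filter. Of those lower in MT than the control there were 108, 160 and 189, and 866 with loess offsets. With libraries left out, including further ones chosen after the data were seen, the ranges in this order were 291 to 1805, 66 to 824, 78 to 1135, 127 to 682, 157 to 1023, 317 to 1965, 514 to 2926 and 19 to 664. The replicate block changed no call count of a list by over 1.5 times.

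GMT replicate 1, with 241394 counts, limits the precision at low levels, as 1 count in it is worth 4.01 CPM. PCR reads without molecular identifiers are not independent molecules.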
